A study of Mus musculus with 8 samples.

Results

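The genes described here are the 10 mouse genes of MHC class II antigen presentation and its master regulator, picked by symbol from the 55450 genes of the table: H2-Aa, H2-Ab1, H2-Eb1, H2-DMa, H2-DMb1, H2-DMb2, H2-Oa, H2-Ob, Cd74 and Ciita. All 10 were found, and all 10 were among the 16911 genes that passed the filter on low counts. They were measured by polyA RNA sequencing in 8 tumours of MOC1, an oral squamous carcinoma line of mouse origin, grown in the flank of C57BL/6 mice. All mice received anti-PD-1, an antibody that blocks the T cell checkpoint receptor PD-1, together with an antisense oligonucleotide (ASO) for 32 days, and there was no untreated group. Of the tumours, 3 were treated with a control ASO and 5 with a Smyd3 ASO, directed at the lysine methyltransferase Smyd3. Of these 5 tumours the labels mark 2 as responders (numbered 1 and 3) and 2 as non-responders, and 1 (numbered 2) carries no mark. The non-responders have no number in the labels and are called 1 and 2 in the order of listing. The mice's age and the criterion of response are not given in the sources used here. No label says how the tumours were spread over mice or cages, so p-values measure only the spread between these 8 libraries.

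MHC class II molecules are pairs of an alpha and a beta chain that show peptides from ingested proteins to CD4+ T cells. The chains assemble in the endoplasmic reticulum around the invariant chain, made from Cd74, which blocks the groove until endosomal proteases degrade it. H2-DM then exchanges the remaining invariant chain fragment for peptides, and H2-DO restrains H2-DM. Dendritic cells, B cells and many macrophages express these genes at rest, and other cells, epithelial tumour cells among them, can do so after exposure to interferon gamma, which induces the gene of the coactivator CIITA. CIITA does not bind DNA itself but docks on RFX, CREB and NF-Y factors that occupy the X and Y boxes shared by class II promoters.

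The library totals ran from 22103853.1 to 27258700.1 expected counts, so 1 CPM, the unit of counts scaled to library size, was 22.1 to 27.3 reads. Smyd3 was at 10.6 to 11.9 CPM in the 3 controls and at 4.38 to 9.26 CPM in the 5 Smyd3 ASO tumours, with no overlap (log2 fold change −0.80 in edgeR, FDR 0.246). Markers of the labelled cell type were abundant: 7 squamous carcinoma cell genes such as Krt5 and Krt14 summed to between 20022 and 41943 CPM in every tumour. In bulk tissue, more cells that express a gene and more RNA per cell cannot be told apart. The 10 skeletal muscle markers were higher in every Smyd3 ASO tumour than in every control, summing to 31.2 to 81.0 CPM in controls and 545.9 to 9551 CPM in the other arm, and their part in the results below was not tested.

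Of the 10 genes, 8 lie in one cluster on mouse chromosome 17 between positions 34092340 and 34316674 of the mm10 build, a span of 224 kb. Ciita lies on chromosome 16 (10480059 to 10528418, plus strand). Promoter windows from RefSeq (build GRCm38.p6, 250 bases before to 50 after a start site) were matched by symbol for 7 of the 10 genes. They are shown because the paired X and Y boxes are the feature through which CIITA is known to act on these genes. A Y box was searched as TGATTGG and an X box as TNNNAAC directly followed by NNATG, where N is any base. In the windows of these genes only matches on the sense strand were counted. The spellings were chosen after the windows had been read. Capitals mark matches, and each stretch runs from 45 bases before the Y match to its last base, 5′ to 3′ on the strand of the gene.
H2-Aa, chr17:34287867-34287918, minus strand: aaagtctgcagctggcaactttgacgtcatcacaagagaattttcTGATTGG
H2-Eb1, chr17:34305761-34305812, plus strand: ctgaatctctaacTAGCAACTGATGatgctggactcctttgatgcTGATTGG
H2-DMb2, chr17:34145112-34145163, plus strand: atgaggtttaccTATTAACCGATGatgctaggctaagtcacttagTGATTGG
H2-Oa, chr17:34092289-34092340, plus strand: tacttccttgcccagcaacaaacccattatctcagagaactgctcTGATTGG
H2-Ob, chr17:34238801-34238852, plus strand: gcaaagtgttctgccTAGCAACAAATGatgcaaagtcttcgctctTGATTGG

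On the sense strand, the Y spelling was present in the windows of 6 of the 7 genes, starting 45 to 92 bases before the start site. The exception was H2-DMa, in neither of whose 2 windows these letters occurred on that strand. The X spelling was present in 4, namely H2-Eb1, H2-DMb1, H2-DMb2 and H2-Ob, each time 5′ of the Y match with 20, 21, 21 and 18 bases between them. Among 32544 distinct RefSeq windows of 300 bases, 2.74% held the X spelling and 7.8% the Y spelling on either strand, a wider search than the sense strand alone. Only 10 windows, 0.0307%, held both in this order on the sense strand with 10 to 30 bases between them, and 4 of these 10 were the class II genes just named. Because the spellings were chosen with the class II windows in view, these 4 matches are a description and not a test of enrichment. Windows of H2-Ab1, Cd74 and Ciita were not used here.

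The 10 genes spanned a wide range of abundance. Per kilobase of the principal GENCODE transcript, the Smyd3 ASO tumours held 1192.9 ± 357.7 CPM of Cd74 (SD, n = 5), 660.3 ± 218.6 of the alpha chain H2-Aa, 475.5 ± 158.8 of the beta chain H2-Ab1 and 319.1 ± 107.8 of the beta chain H2-Eb1. The peptide exchanger followed with 76.2 ± 22.4 for H2-DMb1 and 39.3 ± 13.7 for H2-DMa. Ciita, the regulator, was at 9.21 ± 2.08, H2-DMb2 at 3.49 ± 2.01, and the H2-DO chains H2-Oa and H2-Ob at 1.37 ± 0.699 and 0.575 ± 0.273. On this scale H2-Aa and H2-Ab1, and likewise H2-Ab1 and H2-Eb1, differed by less than the larger of their SDs, and all other neighbours in the order differed by more than either SD. These SDs are between tumours in which the genes moved together, so they do not measure how certain the order is. With the summed exon length of each gene as the divisor the order of H2-Aa, H2-Ab1 and H2-Eb1 turned round, and the other 7 ranks stayed as they were. The control tumours gave the same order on the principal transcript scale, from 708 ± 171.6 for Cd74 to 0.388 ± 0.184 for H2-Ob (SD, n = 3).

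Smyd3 ASO was compared with control ASO under anti-PD-1 to see how class II transcripts differed between the arms. All 10 genes had a log2 fold change above 0, where 51.8% of all genes tested did. The values ran from 0.57 to 1.49 with a median of 0.86, where the median of all genes was 0.01. None of the 10 passed the test: edgeR's quasi-likelihood fit with Benjamini-Hochberg adjustment over all genes gave false discovery rates (FDR) from 0.170 to 0.615. It called 0% of the 16911 genes in either direction. At an unadjusted p below 0.05, 9 of the 10 genes were higher, where 8.55% of all genes tested were. DESeq2 called 3 of the 10 higher, where it called 3.95% of all genes higher: H2-DMb1 (adjusted p = 0.0158), H2-DMa (0.0310) and Ciita (0.0371).

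Ciita was at 25.6, 44.8 and 22.1 CPM in controls 1, 2 and 3. In the Smyd3 ASO arm it was at 53.6 and 75.4 CPM in responders 1 and 3, 56.8 in the tumour without a mark, and 42.2 and 48.7 in non-responders 1 and 2. Control 2 stood above the other controls and just above non-responder 1, and that was the only overlap between the arms. The means were 30.8 ± 12.2 CPM (SD, n = 3) and 55.3 ± 12.5 CPM (SD, n = 5), a log2 fold change of 0.85 (SE 0.26, edgeR FDR 0.195).

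H2-Ab1, the beta chain of the I-A molecule, showed the same order of tumours. From lowest to highest it varied 3.68-fold, where Ciita varied 3.41-fold. Its values were 308.2, 429.2 and 233.3 CPM in controls 1, 2 and 3, 566.4 and 858.8 in the responders, 603.2 in the tumour without a mark and 320.2 and 532.9 in the non-responders. Responder 3 was the highest tumour and non-responder 1 lay among the controls. The log2 fold change between arms was 0.83 (SE 0.31, edgeR FDR 0.258). Its partner H2-Aa ran from 289.4 to 547.4 CPM in controls and from 428.6 to 1118.4 in Smyd3 ASO tumours (log2 fold change 0.86, SE 0.31, edgeR FDR 0.239).

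H2-Eb1 encodes the beta chain of the I-E molecule. It was measured at 234.0 to 396.3 CPM in controls and 305.6 to 807.6 in Smyd3 ASO tumours, with a log2 fold change of 0.81 (SE 0.30, edgeR FDR 0.256). Its alpha chain partner is a pseudogene in the C57BL/6 reference, and H2-Ea-ps held 1 read in the 8 libraries together. H2-Eb2, a neighbouring beta chain gene, was at 0.125, 0.401 and 0.0841 CPM in controls, which is 3, 9 and 2 reads. In the other arm it was at 1.20 to 4.35 CPM, without overlap, where 5.45% of all genes tested separated upward. Its log2 fold change was 3.32 (edgeR FDR 0.0962), and DESeq2 called it higher (adjusted p = 0.000186), where it called 3.95% of all genes higher.

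Cd74 was the most abundant of the set and had the smallest fold range between tumours, 3.15 from lowest to highest. It stood at 949.1, 1261.0 and 784.6 CPM in controls 1, 2 and 3, at 1633.5 and 2473.9 in the responders, 1699.2 in the tumour without a mark and 1079.7 and 1524.0 in the non-responders. As with the classical chains, the arms overlapped only through control 2 and non-responder 1. The log2 fold change was 0.75 (SE 0.26, edgeR FDR 0.230).

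**Figure D1:**
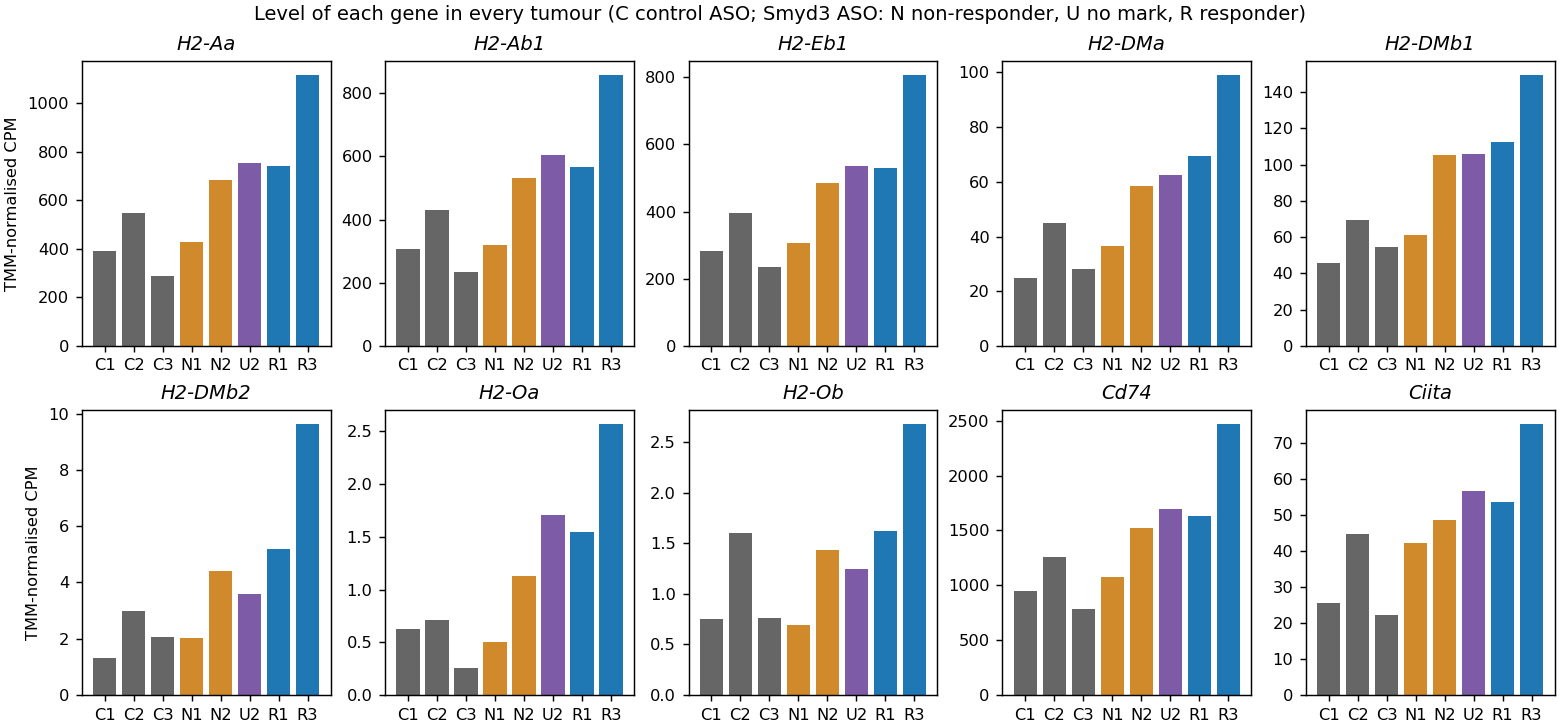
TMM-normalised CPM of each of the 10 genes (1 panel each, linear axis from 0) in the 8 tumours, with controls in grey, non-responders in orange, the tumour without a mark in purple and responders in blue; each bar is 1 tumour. Responder 3 is the highest bar in all 10 panels, and control 2 exceeds non-responder 1 in each.

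The peptide exchanger H2-DM is built from H2-DMa and a beta chain. H2-DMa was at 24.9, 44.8 and 28.1 CPM in controls, 69.4 and 99.2 in responders, 62.5 in the tumour without a mark and 36.3 and 58.4 in non-responders, a log2 fold change of 1.0 (SE 0.32, edgeR FDR 0.198). H2-DMb1 was at 45.5, 69.6 and 54.3 CPM in controls, 112.7 and 149.7 in responders, 106.2 in the tumour without a mark and 61.0 and 105.2 in non-responders. It had the lowest FDR of the 10 genes (log2 fold change 0.92, SE 0.27, edgeR FDR 0.170), and without non-responder 1 it passed (1.07, edgeR FDR 0.0404), where 1.12% of genes were then called higher. H2-DMb2 was far scarcer, at 1.33 to 2.99 CPM in controls and 2.03 to 9.64 CPM in the other arm (log2 fold change 1.22, SE 0.51, edgeR FDR 0.292). The longest open reading frames of H2-DMb1 and H2-DMb2, both 786 bases, were identical at 95.9% of positions. These 2 were the only genes of the 10 with fractional counts, so their split is uncertain. Summed, they gave a log2 fold change of 0.93 (edgeR FDR 0.174).

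The H2-DO chains, typical of B cells, were the scarcest per kilobase. H2-Oa was at 0.624, 0.713 and 0.252 CPM in controls, 1.54 and 2.57 in responders, 1.71 in the tumour without a mark and 0.507 and 1.13 in non-responders. Its log2 fold change of 1.49 was the widest of the 10 and rested on 227 reads over all libraries (SE 0.57, edgeR FDR 0.264). H2-Ob was at 0.748, 1.61 and 0.757 CPM in controls and at 0.691 to 2.68 CPM in the other arm, of which 2 exceeded the highest control. It had the smallest log2 fold change of the 10, 0.57 (SE 0.48, edgeR FDR 0.615), a value that moved to 0.26 without responder 3, 0.37 without control 3 and 1.04 without control 2, where that of Cd74 was smaller (0.97). In the other 9 genes 4 of the 5 Smyd3 ASO tumours exceeded every control.

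The tumours kept nearly the same order in every gene. Responder 3 was the highest in 10 of 10. The second place went to the tumour without a mark in 6 genes and to responder 1 in 4. Control 2 lay above non-responder 1 in all 10, and the lowest value belonged to control 3 in 6 genes, control 1 in 3 and non-responder 1 in 1. So none of the 10 genes separated the arms completely, where 5.45% of all genes tested were higher in every Smyd3 ASO tumour than in every control. Leaving out non-responder 1 separated 9 of the 10, all but H2-Ob, where 9.08% of all genes then separated upward. Leaving out control 2 separated 7 of the 10, where 10.1% of all genes did. Leaving out any of the other 6 tumours separated none, where 9.59% (control 1), 8.33% (control 3), 6.82% (responder 1), 6.53% (no mark), 6.01% (responder 3) and 7.3% (non-responder 2) of all genes did. Within the Smyd3 ASO arm, the lowest Smyd3 levels lay too close to rank. They were 4.38 CPM (responder 3, 121 reads), 4.58 CPM (no mark, 118 reads) and 4.88 CPM (non-responder 2, 112 reads). Non-responder 1 (9.26 CPM, 201 reads) and responder 1 (8.68 CPM, 214 reads) kept more. Both the lower and the higher Smyd3 levels thus included a responder and a non-responder. Responder 3 was highest in all 10 genes. Non-responder 1 was the lowest of its arm in all 10, at the level of the controls. Responder 1 kept more Smyd3 (8.68 CPM) than non-responder 2 (4.88 CPM), yet was higher in all 10 genes. Whether remaining Smyd3 and the class II genes are related was not tested.

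Within the arm given Smyd3 ASO, responders were set against non-responders, groups that are defined by outcome. Both responders were above both non-responders in all 10 genes, where 20.3% of all genes tested were. The log2 fold changes ran from 0.50 for Ciita to 1.32 for H2-Oa with a median of 0.75, against 0.01 over all genes, of which 51.6% were above 0. No gene passed the test, with edgeR FDR from 0.586 to 0.700 for the 10 and 0% of all genes called higher, and at an unadjusted p below 0.05 only H2-DMa was higher (0.0486), where 4.74% of all genes were. DESeq2 called none of the 10 either, with adjusted p from 0.391 to 0.768, where it called 0.94% of all genes higher. H2-Aa averaged 929.3 ± 267.5 CPM in the 2 responders against 556.8 ± 181.4 CPM in the 2 non-responders (SD, n = 2 each), and H2-DMa 84.3 ± 21.0 and 47.4 ± 15.6 CPM. Without responder 3 the median was 0.436, and without non-responder 1 it was 0.453. Without responder 1 edgeR called 0.126% of all genes higher and none of the 10.

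**Figure D2:**
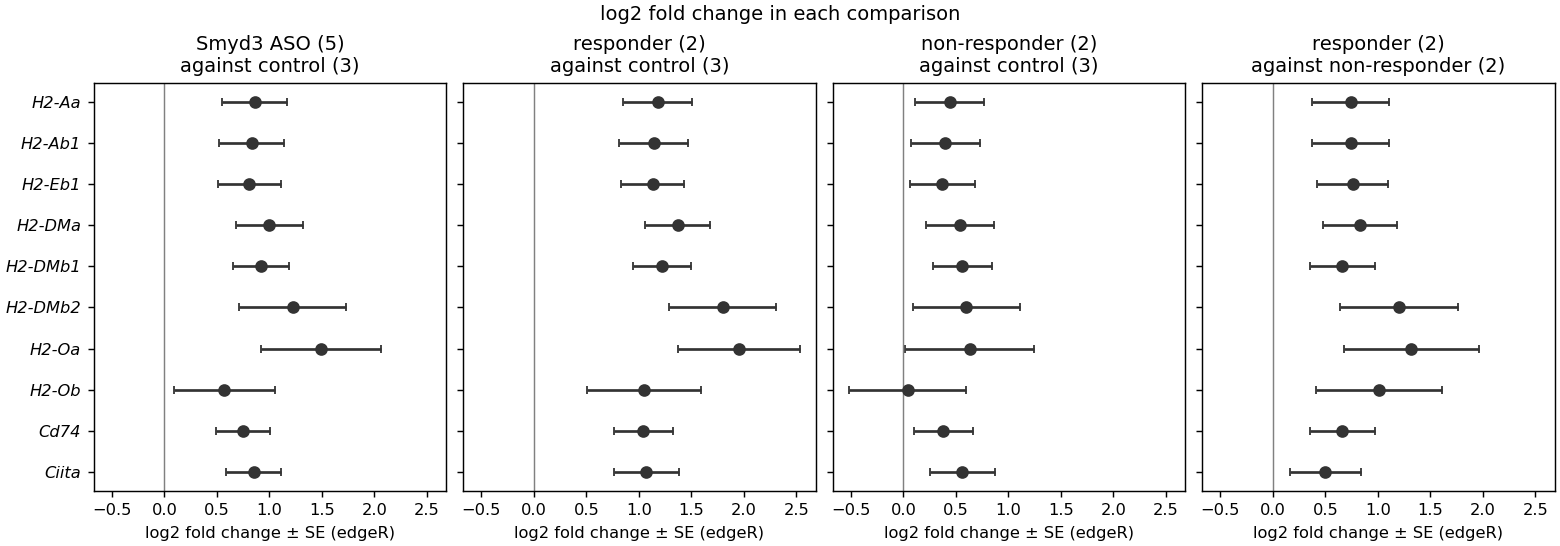
log2 fold change with its standard error from edgeR for the 10 genes (rows) in the 4 comparisons (panels), with group sizes in brackets and a vertical line at 0. All 10 points lie above 0 in each panel, between 0.57 and 1.49 for Smyd3 ASO against control ASO and between 0.04 and 0.63 for non-responders against controls.

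Each response group was also set against the same 3 controls, so both comparisons share libraries and are given side by side only. In responders against controls the log2 fold changes were 1.18 for H2-Aa, 1.14 for H2-Ab1, 1.13 for H2-Eb1, 1.04 for Cd74 and 1.07 for Ciita. The other 5 genes ran from 1.05 for H2-Ob to 1.95 for H2-Oa, and the median was 1.16, with 50.4% of all genes above 0. In non-responders against controls the corresponding values were 0.44, 0.40, 0.37, 0.38 and 0.56, the range of the other 5 was 0.04 for H2-Ob to 0.63 for H2-Oa, and the median was 0.49, with 51.1% of all genes above 0. Both responders exceeded every control in 10 of 10 genes, where 18.8% of all genes did. In the non-responder comparison 0 of 10 separated upward, where 12.2% of all genes did.

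None of the 10 genes passed edgeR in either comparison. The FDR ran from 0.0897 to 0.386 for responders, where 1.38% of all genes were called higher, and from 0.602 to 0.990 for non-responders, where 0% were. At an unadjusted p below 0.05, 9 of the 10 were higher in responders, where 9.62% of all genes were, and 0 of the 10 in non-responders, where 5.1% were. DESeq2 called 8 of the 10 higher in responders, all but H2-Oa and H2-Ob, with adjusted p from 0.00209 for H2-DMa to 0.0298 for Ciita, where it called 4.46% of all genes higher. It called 0 of the 10 in non-responders, where it called 1.35% of all genes higher. Ciita also passed edgeR in responders when control 2 was left out (log2 fold change 1.45, edgeR FDR 0.0461), where 0.553% of all genes were called higher. None of the 10 was called when another library of this comparison was left out, where the share of all genes called higher was 0% without control 1, 0.0298% without control 3, 1.59% without responder 1 and 0.192% without responder 3. Without non-responder 2 the non-responder median was 0.036, and H2-Ab1, H2-DMb2, H2-Oa and H2-Ob had values below 0.

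Ratios between the abundant class II genes varied less between tumours than their levels. While H2-Aa and H2-Ab1 varied 3.86-fold and 3.68-fold between the lowest and the highest tumour, H2-Aa reads per H2-Ab1 read lay between 1.24 and 1.34 in all 8. H2-Ab1 per H2-Eb1 lay between 0.997 and 1.13, and Cd74 per H2-Ab1 between 2.82 and 3.37. The last ratio was 2.82 to 2.88 in 4 Smyd3 ASO tumours and 3.37 in non-responder 1, where the controls ran from 2.94 to 3.36. H2-DMb1 per H2-DMa lay between 1.51 and 1.94. The H2-DM genes were looser against the classical chains: H2-DMb1 per H2-Ab1 was 0.148, 0.162 and 0.233 in the controls and 0.174 to 0.199 in the Smyd3 ASO tumours. Ratios of the scarce beta chain genes spread more widely. H2-DMb2 per H2-DMb1 varied 2.18-fold, from 0.0295 to 0.0643, and H2-Eb2 per H2-Eb1 15-fold, from 0.00036 to 0.00538. Both spreads are imprecise. The split of reads between the H2-DMb genes is uncertain, and H2-Eb2 held only 3, 9 and 2 reads in controls 1, 2 and 3.

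The class II genes were then set against Ptprc, which encodes the leukocyte antigen CD45, in the same tumour; this ratio was chosen after the levels had been seen. Ptprc itself averaged 64.5 ± 13.7 CPM (SD, n = 3) under control ASO and 88.0 ± 30.3 CPM (SD, n = 5) under Smyd3 ASO (log2 fold change 0.45, edgeR FDR 0.469). H2-Ab1 reads per Ptprc read were 4.84, 5.47 and 4.55 in controls 1, 2 and 3, 7.37 and 6.25 in the responders, 7.28 in the tumour without a mark and 5.81 and 6.06 in the non-responders. On this scale the arms no longer overlapped, and non-responder 1 stood above control 2. Cd74 per Ptprc was 14.9 to 16.1 in controls and 17.3 to 21.3 in Smyd3 ASO tumours, also without overlap. Ciita per Ptprc was 0.401, 0.570 and 0.432 in controls and 0.549 to 0.766 in Smyd3 ASO tumours, with the highest value in non-responder 1 and control 2 inside the range of the other arm.

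All 56 ways of dividing the 8 tumours into 3 and 5 were enumerated in a two-sided exact permutation test, which gave p = 0.0179 for H2-Ab1, the smallest it can give, 0.0357 for Cd74 and 0.0714 for Ciita. Adjusted over the 3 ratios these were 0.0536, 0.0536 and 0.0714, so none passed. Because the ratio was chosen after the levels had been seen, these p-values do not hold their nominal level and are a description only. The 3 ratios share Ptprc as denominator and their numerators moved together, so they are not separate tests. Of the 10 genes, 6 had a higher ratio to Ptprc in every Smyd3 ASO tumour than in every control, where 2.33% of the 16910 genes other than Ptprc did: H2-Aa, H2-Ab1, H2-Eb1, H2-DMa, H2-DMb1 and Cd74. Ptprc averaged higher in the Smyd3 ASO arm, so a gene with equal levels in both arms has a lower ratio there. The 2.33% covers genes of all cell types and is not a share among leukocyte genes. The mean log2 differences of the ratio between arms were 0.32 for Cd74 to 0.57 for H2-DMa in these 6. In the 4 whose ratios overlapped they were 1.04 for H2-Oa, 0.71 for H2-DMb2, 0.48 for Ciita and 0.12 for H2-Ob.

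**Figure D3:**
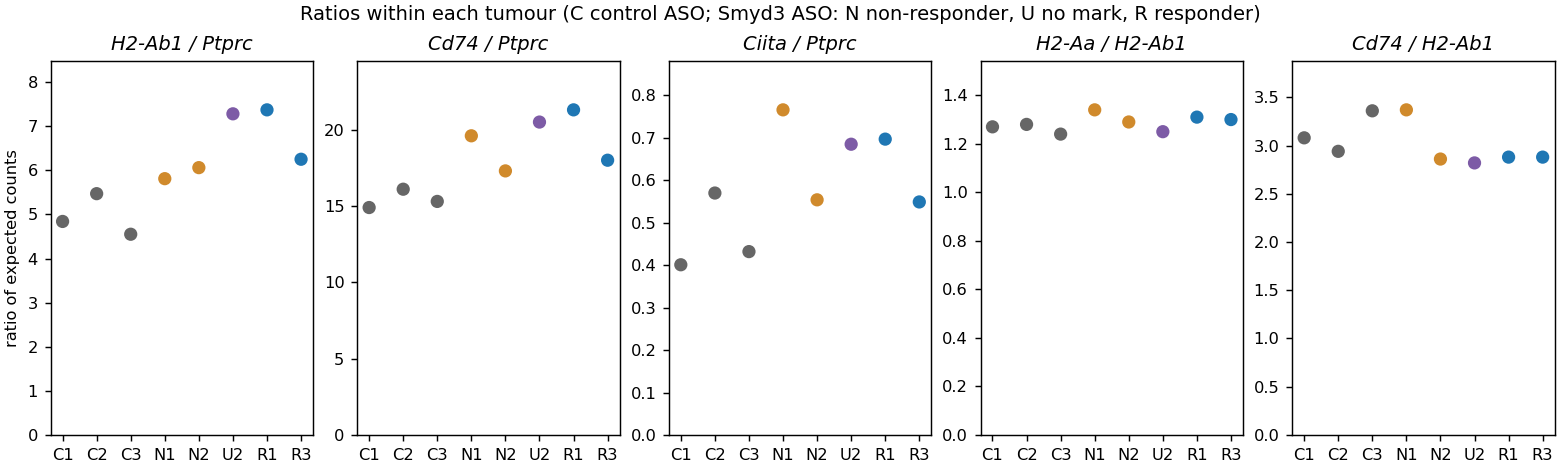
Ratio of expected counts within each of the 8 tumours for 5 gene pairs (panels, linear axes from 0; 1 point per tumour, coloured by group). H2-Ab1 and Cd74 per Ptprc are higher in all 5 Smyd3 ASO tumours than in all 3 controls, whereas H2-Aa per H2-Ab1 stays between 1.24 and 1.34.

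The other genes of the pathway were grouped by role, and edgeR, which called no gene between the arms, called none of them. The 8 factors that bind class II promoters had log2 fold changes between −0.10 and 0.24, with a median of 0.04, and DESeq2 called none of them either. Rfx5, the DNA-binding subunit of RFX, was at 37.1 ± 5.57 CPM (SD, n = 3) under control ASO and 43.8 ± 4.35 CPM (SD, n = 5) under Smyd3 ASO, a log2 fold change of 0.24 (edgeR FDR 0.407). Its partner Rfxank had 0.18 and the NF-Y subunit Nfyc 0.09.

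Of the 10 genes that lead from interferon gamma to Ciita, 9 had a log2 fold change above 0, and the median was 0.55. Irf1, an interferon-induced transcription factor that acts on Ciita, was at 167.7, 197.1 and 177.6 CPM in controls 1, 2 and 3, 364.6 and 426.2 in the responders, 370.8 in the tumour without a mark and 231.5 and 322.8 in the non-responders. The arms did not overlap, and non-responder 1 was the lowest of its arm, as it was for each of the 10 genes described above (log2 fold change 0.92, SE 0.19, edgeR FDR 0.0939). Socs1, a feedback inhibitor of the pathway, had 0.94 (edgeR FDR 0.103). The cytokine gene Ifng itself, named after its values were seen, was at 0.463 to 0.892 CPM in controls and 0.967 to 3.55 CPM in the other arm (1.67, edgeR FDR 0.149). DESeq2 called Irf1 (adjusted p = 0.000144), Socs1 (0.00117) and Ifng (0.0201) higher between the arms. In responders against controls Irf1 rose in edgeR (1.13, FDR 0.0320), a call that was lost without any 1 of the 5 libraries compared (FDR 0.0575 to 0.239).

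Among 7 genes of endosomal antigen processing, 5 were above 0 and 2 below, with a median of 0.09. The cathepsin gene Ctsl was at 579.3 to 666.7 CPM in controls and 375.1 to 514.7 in Smyd3 ASO tumours, lower in all 5, where 5.14% of all genes were (log2 fold change −0.53, SE 0.12, edgeR FDR 0.102). Ctsd was likewise lower in all 5 (−0.38, edgeR FDR 0.209), and the thiol reductase gene Ifi30 had 0.40 (edgeR FDR 0.500). DESeq2 called Ctsl (adjusted p = 0.00175) and Ctsd (0.0438) lower. Of 3 genes of class II turnover at the cell surface, Cd83 had 0.74 (edgeR FDR 0.338), March8 −0.15 and March1 0.30. All 6 tested genes of the T cell side and costimulation were above 0, with a median of 0.81: Lag3, an inhibitory receptor that binds class II, had 1.21 (edgeR FDR 0.196), Cd40 0.94 (edgeR FDR 0.244) and Cd86 0.69 (edgeR FDR 0.341). DESeq2 called only Lag3 of these 6 (adjusted p = 0.0259).

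Markers of cells that express class II are given beside these genes, and their part in the results was not tested. All 9 dendritic cell markers had a log2 fold change above 0 (median 1.03); edgeR called none of them and DESeq2 called Flt3 and Ccr7. Flt3 had 1.66 (edgeR FDR 0.196), Ccr7 1.63 (edgeR FDR 0.198) and Xcr1 1.18 (edgeR FDR 0.215). Of the 9, only Flt3 and Xcr1 were higher in every Smyd3 ASO tumour than in every control, where 5.45% of all genes tested were. The margins were narrow. Control 2 and the tumour without a mark had 1.11 and 1.24 CPM of Flt3, and 1.07 and 1.13 CPM of Xcr1. The 9 summed to 82.9 to 118.6 CPM in controls and 96.7 to 158 CPM in the other arm, but 77.3% to 93.3% of that sum was Itgax (log2 fold change 0.11). The other 8 summed to 7.07 to 16.2 CPM in controls and 13.9 to 35.9 CPM in the other arm. Of the 9, 1 was at 0 in 1 tumour. The 9 macrophage markers had a median of 0.11 and summed to 689.3 to 1217.6 and 715.0 to 1470.8 CPM. Cd14 had 0.78 (edgeR FDR 0.0656; DESeq2 adjusted p = 1.45e-07), Adgre1 0.29 and Mrc1 −0.28. Cd14 rose in responders against controls (0.87, edgeR FDR 0.0373), a call that was lost without any 1 of the 5 libraries compared (FDR 0.0729 to 0.258). Of the 3 pan-leukocyte markers, Ptprc is given above, Coro1a had 0.51 and Laptm5 0.33.

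B cell markers were scarce. The 7 genes summed to 3.91 to 9.59 CPM in controls and 4.28 to 22.2 CPM in the other arm, 2 of them were at 0 in 1 tumour, and the 6 that were tested had a median of 1.07. Cd79a had 2.56 (edgeR FDR 0.354) and Ms4a1 2.43. T cell markers, on cells that in mice do not normally express class II, had a median of 1.64 over 6 genes and summed to 15 to 28.8 CPM in controls and 24.7 to 127.6 CPM in the other arm. Cd3d had 1.92 (edgeR FDR 0.124), Cd8a 1.92 and Cd3g 1.74, and DESeq2 called 4 of the 6: these 3 and Lck. Cd3d rose in responders against controls (2.55, edgeR FDR 0.0270), a call that held without responder 1 and was lost without any 1 of the other 4 libraries compared (FDR 0.0575 to 0.161). The 7 squamous carcinoma cell markers had a median of −0.17, with Krt17 at −0.43 (edgeR FDR 0.304), Krt14 at −0.32 and Krt5 at −0.29. In responders against controls, where edgeR called 1.38% of all genes higher, 8 of 10 skeletal muscle genes (Myh1, Ckm, Acta1, Tnnt3, Mylpf, Pvalb, Actn3 and Tnni2) and 2 of 5 tested adipocyte genes (Plin4 and Cidec) rose. Of the 8 muscle genes, edgeR called 0 without control 1 or control 3, 3 without control 2, 5 without responder 3 and 8 without responder 1. Both adipocyte genes were called only without responder 1 among these 5 fits.

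In responders against non-responders the same marker lists also had medians above 0, except the squamous markers. Of all genes tested, 20.3% were higher in both responders than in both non-responders, and 3200 of 16911 were lower in both. The median log2 fold change was 1.4 for T cell markers, with 6 of 6 separated, 1.96 for B cell markers, with 5 of 6 separated, 0.78 for dendritic cell markers, with 7 of 9 separated, and 0.61 for macrophage markers, with 5 of 9 higher in both responders. It was 0.57 for leukocyte markers, with 0 of 3 separated, 3.21 for skeletal muscle markers, with 8 of 10, 4.29 for adipocyte markers, with 4 of 5, and −0.57 for squamous carcinoma cell markers, of which 4 of 7 were lower in both responders. edgeR called none of these genes, and their part in the difference of the class II genes between responders and non-responders was not tested.

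**Figure D4:**
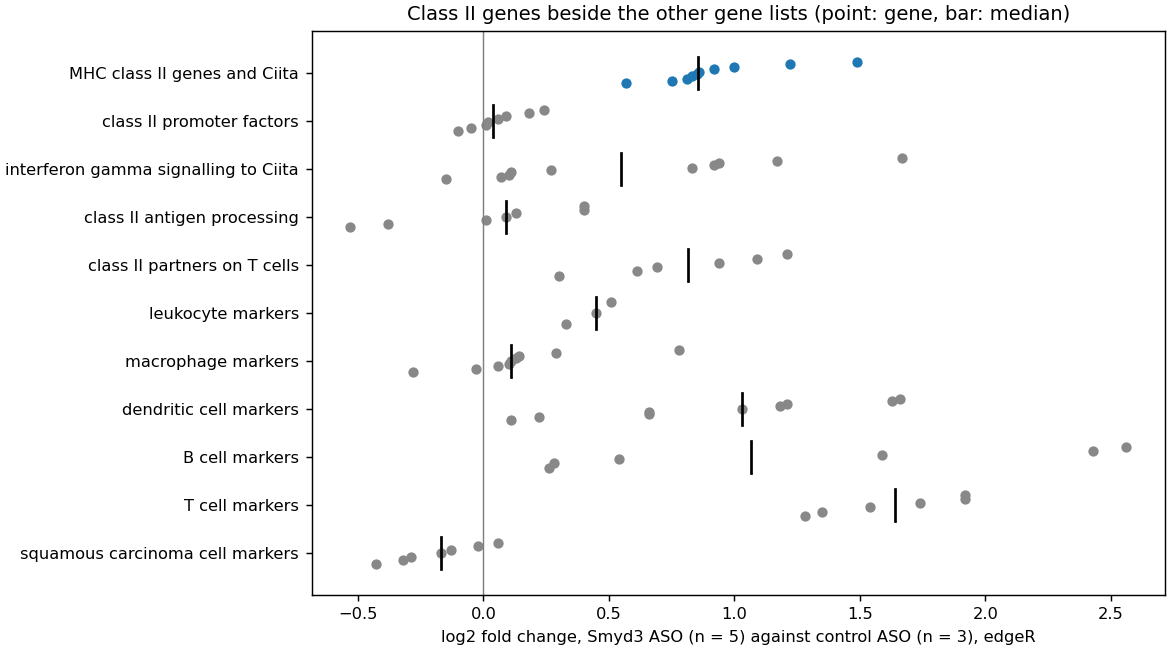
log2 fold change of each tested gene between Smyd3 ASO (n = 5) and control ASO (n = 3) from edgeR, 1 row per gene list shown (point: gene, bar: median). Not drawn are the skeletal muscle markers (median 6.23), the adipocyte markers (7.07), the class II turnover genes (0.30) and H2-Eb2 (3.32). The MHC class II genes and Ciita have a median of 0.86, promoter factors 0.04, macrophage markers 0.11, dendritic cell markers 1.03 and T cell markers 1.64.

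Across the 8 tumours the 10 genes followed each other closely, which is a description over libraries that share arm and response differences. Pearson's r of log2 CPM over their 45 pairs ran from 0.822, between Ciita and H2-Ob, to 0.998, with a median of 0.945. Among 13248 genes whose average log2 CPM reached 0, those most like H2-Ab1 outside the set were Adgrg5 (0.987), Xlr4b (0.987), Cd6 (0.984), Ms4a4b (0.983) and Lat (0.981). Those most like Ciita were Ccz1 (0.990), Cxcl9 (0.981), Cd27 (0.980), Ccl5 (0.978) and Themis (0.977). An r of 0.9 or more to H2-Ab1 was found for 1.8% of the ranked genes, and to Ciita for 1.21%.

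Some gene bodies overlap others on the opposite strand, and whether counting used strand is not given in the sources used here. Ciita shares 25888 bases with Dexi, which was at 9.73 to 14.2 CPM, and H2-DMa shares 3094 bases with Brd2, at 308 to 383 CPM. The antisense genes over H2-Oa and H2-Eb1 held at most 0.116 CPM.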

How the data were processed

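The deposited values are unscaled expected counts of each gene in each tumour. Per the submitters' processing notes, RSEM 1.3.0, STAR 2.7.0f, cutadapt 1.18 and bcl2fastq 2.17 were used, with mm10; order, settings and annotation are not given in the sources used here. Per the labels' protocols, libraries were made from polyA RNA with a stranded kit. All 55450 identifiers were found in GENCODE M21. Totals were 22103853.1 to 27258700.1 counts.

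Counts were rounded. Genes with 0.424 CPM (10 reads in the median library) in 2 or more libraries and 15 reads in all were kept: 16911 genes with 99.93% of reads. Libraries were scaled by TMM and tested with edgeR 4.0.16 in R 4.3.3 (robust quasi-likelihood, two-sided, Benjamini-Hochberg FDR 0.05 over all genes tested); the SE of a log2 fold change is its size divided by the square root of F. The arms were fitted with treatment alone, and the other 3 comparisons in a model of 4 groups over 8 libraries. CPM in the text is TMM-scaled. Alternatives were DESeq2 1.42.0, other scaling, no filter, a fit that was not robust, the summed H2-DMb pair, each library left out and a replicate block. DESeq2 calls and left-out libraries for the other gene lists, the marker sum without Itgax, the separation of the arms without each library and the ratio to Ptprc were chosen after seeing the data. The steps were tested on simulated data. No pairing was used. Same-numbered tumours of the arms did not deviate together, but so few pairs cannot tell whether they share more than a number.

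The genes and lists were chosen with earlier results of these data known. All 10 genes and Smyd3 are named, from each other list up to 3 genes with the smallest p between the arms and any past the threshold, and the 5 genes most like H2-Ab1 and Ciita. Results that need names withheld for evaluation are not reported here.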

Additional observations from a re-analysis of the deposited data

How the results depend on the processing

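With DESeq2 the number of genes called was 1053 between the arms (0 with edgeR), 225 for responders against non-responders (0), 1153 for responders against controls (280) and 339 for non-responders against controls (0), and it called 3 of the 10 class II genes between the arms and 8 in responders against controls. Without the filter on low counts edgeR called 52, 7, 499 and 32 genes and none of the 10. Leaving out 1 library gave 0 to 259 genes between the arms (259 without non-responder 1, 5 without control 1), 0 to 21 for responders against non-responders (21 without responder 1) and 0 to 276 for responders against controls (0 without control 1, 109 without control 2, 6 without control 3, 33 without responder 3), with 0 to 1 of the 10 genes called between the arms and in responders against controls. The cause was not tested. The median log2 fold change of the 10 genes then ran from 0.648 to 1.131 between the arms, 0.436 to 1.136 for responders against non-responders, 0.82 to 1.457 for responders against controls and 0.036 to 0.74 for non-responders against controls. In the last comparison H2-Ob turned to −0.146 without control 1, −0.158 without control 3 and −0.58 without non-responder 2, where H2-Ab1 was at −0.016, H2-DMb2 at −0.068 and H2-Oa at −0.061; the highest values with 1 library left out were 0.515 for H2-Ob, 0.72 for H2-Ab1, 1.049 for H2-DMb2 and 1.092 for H2-Oa. In the other 3 comparisons no value of the 10 genes changed sign under the alternatives run.

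Replicate numbers are shared by the 3 controls and 3 of the Smyd3 ASO tumours. Same-numbered tumours did not deviate together (correlations −0.034, 0 and 0.076), where tumours with different numbers had −0.15 to 0.137. So few pairs cannot tell whether same-numbered tumours share more than a number. With the replicate block these 6 libraries gave 245 called genes, and without it 286, with none of the 10 class II genes in either.

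H2-Oa and H2-Ob rest on 227 and 266 reads over 8 libraries, which limits their precision.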
